A study of Homo sapiens with 9 samples.

Results

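Class II genes of the major histocompatibility complex (MHC) were followed in MOLM13 cells in which DDX41, a DEAD-box RNA helicase, was lowered by short hairpin RNA (shRNA). The members were 10 rows of the count table: the classical chains HLA-DRA, HLA-DRB1, HLA-DPA1, HLA-DPB1, HLA-DQA1 and HLA-DQB1, the peptide exchange factor chains HLA-DMA and HLA-DMB, the invariant chain CD74, and CIITA. They were 10 of 30017 genes in the table, and 7 of them were among the 12712 genes with enough counts to be tested. The set was selected on the counts of HLA-DRA, which rose alike with both hairpins in the 3 groups, and the other members were added by function. The values of HLA-DRA are therefore a description, and those of the other members in the same comparisons support nothing on their own.

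MOLM13 is a human acute myeloid leukemia line with monocytic features. All cells were transduced with pLKO-GFP lentivirus made in a human kidney line, and they were sorted on day 4 after transduction, so the controls carried the vector as well. RNA was sequenced in 3 libraries (A, B and D) from each of 3 groups. Cells of the sh-Control group carried a control hairpin, and those of shDDX41 #1 and of shDDX41 #2 each carried a different hairpin to DDX41. Nothing in the labels says that the libraries came from separate cultures, so the p-values measure the spread between these libraries, which may be technical. The cells are 1 line, and each hairpin is 1 sequence.

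Class II molecules are pairs of an alpha and a beta chain that carry peptides from endosomes to the cell surface, where CD4+ T cells read them. CD74 occupies the groove of a new molecule and steers it to the endosome, where proteases trim it and HLA-DM exchanges its last fragment for a peptide. CIITA binds no DNA itself. It is recruited by the RFX factors, NF-Y and CREB-family proteins, which sit on paired X and Y boxes in class II promoters, and it is the switch that limits class II transcription in most cells.

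In GENCODE 29 on GRCh38, the 8 HLA members lie in the class II region of chromosome 6, with HLA-DRA at chr6:32439842-32445046 on the plus strand and HLA-DPB1 at chr6:33075926-33087201 on the plus strand at its ends. CD74 lies at chr5:150401637-150412929 on the minus strand and CIITA at chr16:10866222-10943021 on the plus strand. The table holds 1 count per gene and library.

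The promoter stretches of 4 tested members are shown because they hold letters that match boxes through which CIITA acts, marked in capitals. CD74, the only other tested member with a promoter entry, held no letters so marked and is not shown. The stretches are RefSeq reference sequences of GRCh38.p14, not sequences of these cells. They are printed on the strand of the gene from 140 to 11 bases before its start. Capitals mark AGNNACNGA, the core of the X1 box, and GATTGG, the Y box, on either strand (a Y box on the other strand reads CCAATC). The intervals are chr6:32589859-32589988 for HLA-DRB1, chr6:32666668-32666797 for HLA-DQB1, chr6:32953108-32953237 for HLA-DMA and chr6:32941039-32941168 for HLA-DMB, all on the minus strand.
HLA-DRB1: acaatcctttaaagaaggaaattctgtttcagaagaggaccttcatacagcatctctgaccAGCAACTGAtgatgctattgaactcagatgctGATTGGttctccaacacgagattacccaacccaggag
HLA-DQB1: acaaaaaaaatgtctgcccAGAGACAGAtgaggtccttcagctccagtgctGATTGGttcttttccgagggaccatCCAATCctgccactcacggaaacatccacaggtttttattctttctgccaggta
HLA-DMA: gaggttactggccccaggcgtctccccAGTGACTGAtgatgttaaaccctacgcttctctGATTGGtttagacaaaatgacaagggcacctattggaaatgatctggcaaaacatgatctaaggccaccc
HLA-DMB: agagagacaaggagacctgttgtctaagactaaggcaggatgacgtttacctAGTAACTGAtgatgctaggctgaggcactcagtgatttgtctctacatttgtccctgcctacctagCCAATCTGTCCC

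In HLA-DRB1 the X1 core lay 79 to 71 bases before the start and the Y box 47 to 42 bases before it. In HLA-DQB1 they lay at 121 to 113 and 89 to 84 bases, and in HLA-DMA at 113 to 105 and 80 to 75 bases. In HLA-DMB the X1 core lay 88 to 80 bases before the start, and the only Y box was on the other strand at 22 to 17 bases, where it overlapped a second X1 core by 2 letters. The promoter table matched 8 of the 10 members and had no entry for HLA-DRA or CIITA. The X1 core was in 6 of these 8 (HLA-DRB1, HLA-DQA1, HLA-DQB1, HLA-DPA1, HLA-DMA and HLA-DMB) and in 15.3% of all 35116 promoters of 300 bases. GATTGG was in 5 of the 8 and in 15.1% of all promoters. The X1 core with GATTGG beginning 20 to 45 bases downstream on the same strand was in 3 of the 8 and in 0.117% of all promoters, a search whose letters were chosen after the promoters had been seen. With the longer box CCTAGNNAC and 1 mismatch allowed, followed by GATTGG at 25 to 45 bases, the shares were 2 of 8 and 0.350%. That box alone was in 7 of the 8 but also in 46.2% of all promoters. ATTTGCAT, an octamer known from promoters of B cell genes, was in 0 of the 8 and in 1.77% of all promoters. The promoter of HLA-DRA was not searched for it. These are matches of letters and not measured binding sites.

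The targeted gene fitted the labels in every library. Levels are given as CPM, the count of a gene as a share of its library's TMM-scaled total, multiplied up to a common size. In the 3 control libraries DDX41 stood at 117, 115 and 113 CPM. Its level was 12.2, 12.9 and 9.95 CPM with shDDX41 #1 and 38.9, 39.9 and 42.5 CPM with shDDX41 #2, log2 changes of -3.29 ± 0.0881 (SE, n = 3) and -1.51 ± 0.0771. Library totals were 16385238 to 20510032 counts. Library D of shDDX41 #1 stood farthest from its group, with a chi-square of 17.9 and 19.6 per degree of freedom against the other two, where other pairs within groups gave 2.47 to 10.4. Markers of monocytic leukemia cells were present as the label says: 11 of 12 passed the filter on low counts, and CD14 was close to 0.

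All 7 tested members were higher than sh-Control with each hairpin. With shDDX41 #1, 7 of 7 passed an adjusted p of 0.05 upward (edgeR), where 47.8% of all tested genes passed in either direction, 23.7% higher and 24.1% lower. With shDDX41 #2, 7 of 7 passed upward, where 25% of all tested genes passed, 11.6% higher and 13.4% lower. The number of all genes called with shDDX41 #2 was 3174, and it was 2054 without library B of that hairpin. Both comparisons share the 3 control libraries, and both were used to choose the set, so nothing is read from these shares. The median log2 change of the 7 was 1.00 with shDDX41 #1 and 1.53 with shDDX41 #2, while the median of all tested genes was 0.0119 and -0.0109. HLA-DRA, HLA-DMA, CD74 and CIITA were above the filter in every sh-Control library. HLA-DRB1, HLA-DQB1 and HLA-DMB passed it through the hairpin groups, so for these 3 a difference was built into being tested. In bulk RNA, more cells with class II mRNA and more of it per cell cannot be told apart.

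**Figure D1:**
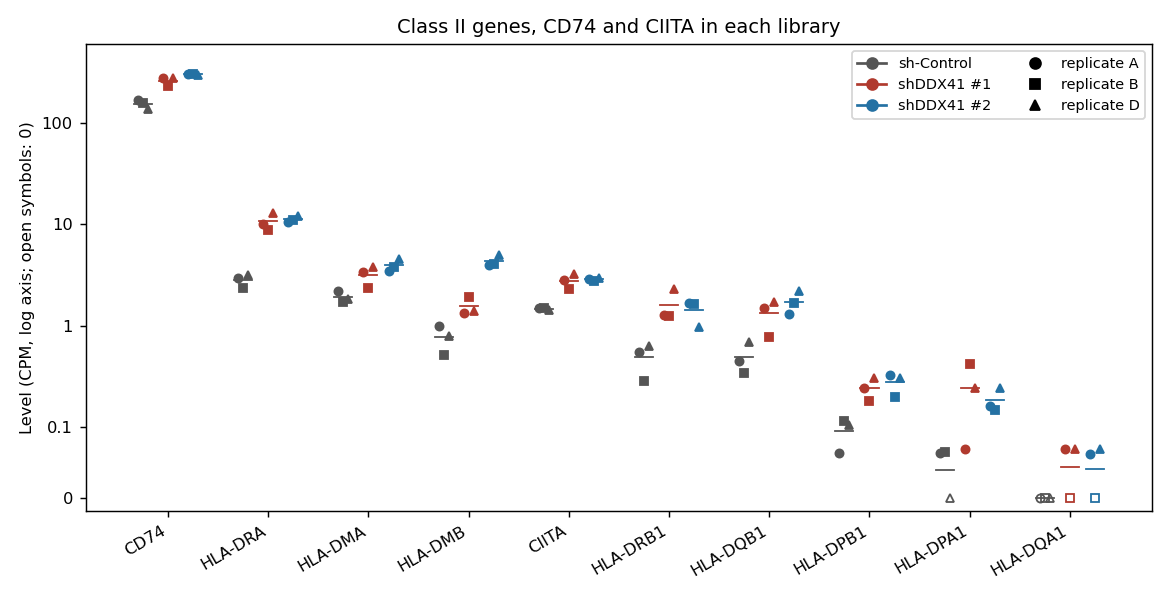
Levels of the 10 members in CPM on a log axis, with 1 symbol per library, a bar at the mean of each group, and open symbols at the foot of the axis for a count of 0. Every tested member has its 3 control libraries below the 6 hairpin libraries, and CD74 lies far above the rest.

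HLA-DRA encodes the alpha chain of HLA-DR and had the most counts of the classical chains. It stood at 2.94, 2.35 and 3.16 CPM in sh-Control A, B and D, at 10.1, 8.86 and 13 CPM with shDDX41 #1, and at 10.5, 11 and 12 CPM with shDDX41 #2. Group means were 2.82 ± 0.418, 10.7 ± 2.11 and 11.1 ± 0.776 CPM (SD, n = 3 each). The control libraries lay below all others, and the hairpin groups overlapped. The fitted folds over sh-Control were 3.76 and 3.93, log2 values of 1.91 ± 0.170 and 1.98 ± 0.168 (SE). These rest on 41 to 60 counts per control library and 148 to 221 per hairpin library.

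HLA-DRB1 encodes the polymorphic beta chain that pairs with HLA-DRA. Its levels were 0.555, 0.287 and 0.632 CPM in sh-Control, 1.27, 1.26 and 2.31 CPM with shDDX41 #1, and 1.67, 1.64 and 0.970 CPM with shDDX41 #2. Both hairpin groups lay above the controls, and they overlapped each other. The log2 changes were 1.69 ± 0.388 and 1.53 ± 0.389 on 5 to 38 counts per library. Reads of HLA-DRB1 may be split with, or lost to, its near-identical neighbours, since how multimapping reads were counted is not given in the sources used here. HLA-DRB3, HLA-DRB4 and HLA-DRB5, its close paralogs, had 0 counts in all 9 libraries. A level per kilobase of exon was available for HLA-DRB5 but not for HLA-DRB3 or HLA-DRB4. Whether the reference used for counting could assign reads to these genes was not tested. Their 0 counts therefore do not show that they were silent, or that HLA-DRB1 holds no reads of theirs.

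HLA-DQB1, the beta chain of HLA-DQ, was at 0.444, 0.344 and 0.685 CPM in sh-Control, 1.51, 0.778 and 1.70 CPM with shDDX41 #1, and 1.30, 1.69 and 2.18 CPM with shDDX41 #2. All hairpin libraries were above all controls, with shDDX41 #1 B nearest to the highest control. The log2 changes were 1.41 ± 0.394 and 1.78 ± 0.375.

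HLA-DQA1, its alpha partner, had 0 counts in the 3 sh-Control libraries, where a count of 0 allows up to 0.158 to 0.176 CPM by counting error alone. It had 2 counts in all with shDDX41 #1 and 2 with shDDX41 #2, so no difference was detectable. HLA-DPA1 and HLA-DPB1, the chains of HLA-DP, were also too low to test. HLA-DPA1 had 1, 1 and 0 counts in sh-Control, 1, 7 and 4 with shDDX41 #1, and 3, 3 and 4 with shDDX41 #2. HLA-DPB1 had 1, 2 and 2 counts in sh-Control, 4, 3 and 5 with shDDX41 #1, and 6, 4 and 5 with shDDX41 #2. In CPM both had their control libraries lowest, at levels of at most 0.115 CPM, below what counting error alone allows for a count of 0. For HLA-DPA1 the counts of sh-Control A and B tie with shDDX41 #1 A at 1, so the order there rests on library scaling. The pair overlap on opposite strands, and the sources differ on whether the library kit kept strand, so their reads may not be separable.

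HLA-DRA held most of the classical chain counts in all groups. The 6 classical chains summed to 73, 55 and 87 counts in sh-Control, to 220, 192 and 290 with shDDX41 #1, and to 259, 295 and 260 with shDDX41 #2. HLA-DRA was 69.0% to 74.5% of that sum in sh-Control, 73.8% to 77.1% with shDDX41 #1 and 74.9% to 76.2% with shDDX41 #2. Its share moved by less than its level did, but HLA-DRA is most of the sum, so the share had little room to rise. Nothing about the other chains is read from it. Whether reads of each chain aligned equally well to the reference was not tested, so chains are compared only as counted. Per kilobase of exon, HLA-DRA stood 5.92 ± 1.70 times (SD, n = 3) above HLA-DRB1 in sh-Control, 6.62 ± 1.14 times with shDDX41 #1 and 8.11 ± 3.28 times with shDDX41 #2, and these ranges overlap.

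HLA-DMA and HLA-DMB form HLA-DM, the catalyst of peptide loading, and moved unequally. HLA-DMA was at 2.22, 1.72 and 1.84 CPM in sh-Control, 3.38, 2.33 and 3.82 CPM with shDDX41 #1, and 3.46, 3.82 and 4.55 CPM with shDDX41 #2. No control reached a hairpin library, but shDDX41 #1 B was close to sh-Control A. The log2 changes were 0.72 ± 0.226 and 1.02 ± 0.218. The first no longer passed without sh-Control B (edgeR, adjusted p = 0.0572) or without shDDX41 #1 D (adjusted p = 0.0630). In the GENCODE annotation HLA-DMA overlaps BRD2, whose counts are far higher, while the RefSeq gene does not. BRD2 itself changed by 0.14 ± 0.0770 and -0.11 ± 0.0770 (log2, adjusted p = 0.138 and 0.328, edgeR).

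HLA-DMB was at 0.999, 0.516 and 0.790 CPM in sh-Control, 1.33, 1.92 and 1.4 CPM with shDDX41 #1, and 4.00, 4.02 and 5.03 CPM with shDDX41 #2. The 3 groups formed 3 separate ranges, with shDDX41 #2 highest. The log2 changes were 1.00 ± 0.297 and 2.48 ± 0.256, the second a fold of 5.58. The first no longer passed without sh-Control B (adjusted p = 0.0568, edgeR) or without shDDX41 #1 B (adjusted p = 0.0599, edgeR).

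CD74, the invariant chain, was by far the most abundant member. It was at 168, 156 and 136 CPM in sh-Control, 278, 231 and 276 CPM with shDDX41 #1, and 305, 302 and 298 CPM with shDDX41 #2. Means were 153 ± 16.1, 262 ± 26.6 and 302 ± 3.59 CPM (SD, n = 3 each), and no group overlapped another. The log2 changes of 0.77 ± 0.0847 and 0.98 ± 0.0847 rest on 2580 to 6093 counts per library, so CD74 carries the smallest error of the set. Per kilobase of exon, CD74 exceeded HLA-DRA 72.3 ± 15.3 times in sh-Control, 32.5 ± 4.26 times with shDDX41 #1 and 35.4 ± 2.83 times with shDDX41 #2. The ratio was lower in all 6 hairpin libraries than in any control, as the change of HLA-DRA was larger. HLA-DRA was chosen for its rise, so this shift is a description and supports nothing on its own.

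CIITA, the transactivator, was at 1.5, 1.49 and 1.42 CPM in sh-Control, 2.83, 2.27 and 3.22 CPM with shDDX41 #1, and 2.92, 2.78 and 2.97 CPM with shDDX41 #2. The control libraries were tightly grouped and lowest, and the hairpin groups overlapped. The log2 changes were 0.91 ± 0.211 and 0.97 ± 0.208, folds of 1.88 and 1.96. The ratio of HLA-DRA to CIITA per kilobase was 24.1 ± 4.07 in sh-Control, 48.1 ± 2.98 with shDDX41 #1 and 48.4 ± 2.96 with shDDX41 #2 (SD, n = 3). As HLA-DRA was chosen for its rise, the shift of this ratio is also only a description. The level of that ratio depends on the 16.059 kb of exon in the longest principal transcript of CIITA, and a shorter transcript would give a lower ratio. Its change between groups does not depend on that length. CIITA overlaps DEXI on the opposite strand. DEXI changed by 0.31 ± 0.0896 with shDDX41 #1 (adjusted p = 0.0100, edgeR) and by -0.20 ± 0.0911 with shDDX41 #2 (adjusted p = 0.125). The part of DEXI reads in the CIITA counts was not tested.

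**Figure D2:**
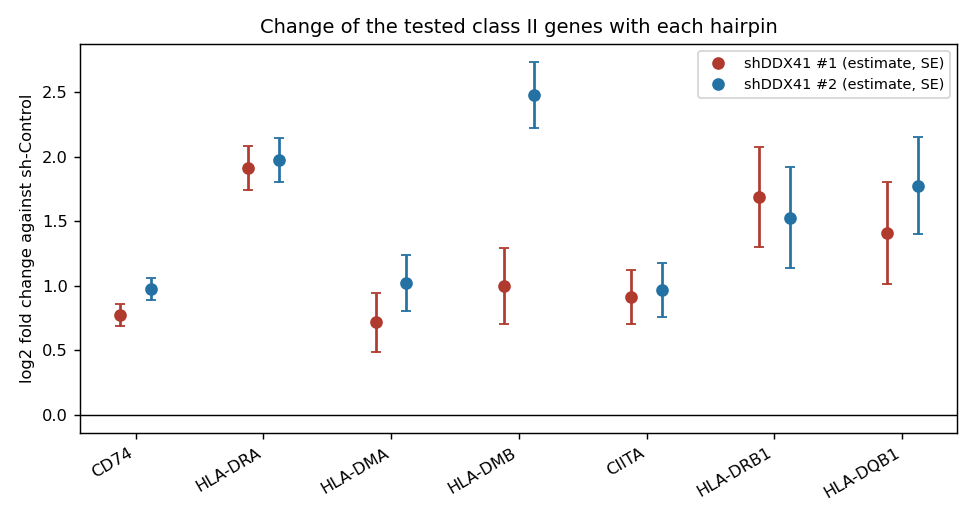
Estimated log2 change of the 7 tested members against sh-Control, with the SE from the fit over 9 libraries, for shDDX41 #1 and shDDX41 #2. All points lie above 0, and the hairpins stand apart most for HLA-DMB, at 1.00 and 2.48.

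**Figure D3:**
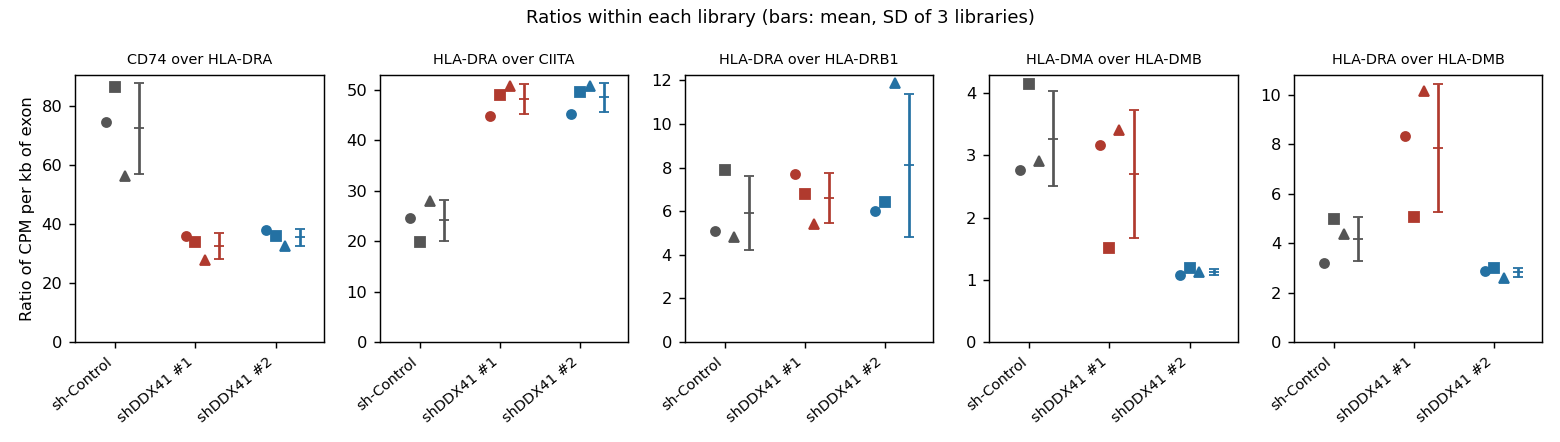
Ratios of CPM per kilobase of exon between members within each library, with the mean and SD of 3 libraries beside the points. CD74 over HLA-DRA is lower and HLA-DRA over CIITA higher in the hairpin libraries, and HLA-DMA over HLA-DMB is lowest with shDDX41 #2. HLA-DRA was chosen for its rise, so ratios with it are a description.

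The hairpins lowered DDX41 to different levels and were also compared with each other. Of the 7 tested members, 1 passed, HLA-DMB, lower with shDDX41 #1. Of all tested genes, 48.8% passed, 24.6% higher and 24.2% lower with shDDX41 #1. HLA-DMB differed by -1.48 on the log2 scale (95% interval -1.98 to -0.99, adjusted p = 9.6e-05, edgeR). HLA-DMA over HLA-DMB, per kilobase, was 3.27 ± 0.761 in sh-Control, 2.70 ± 1.03 with shDDX41 #1 and 1.13 ± 0.0534 with shDDX41 #2. The shDDX41 #2 range lay below the others.

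CD74 differed by -0.20 (-0.38 to -0.03, adjusted p = 0.0541, edgeR), which missed the threshold, although its groups did not overlap. Without sh-Control A or D, or without shDDX41 #1 A or D, CD74 passed as well, which made the count 2. Groups did not overlap, with shDDX41 #1 lower, for 2 of the 7, HLA-DMB and CD74, and for 28.5% of all tested genes. CIITA differed by -0.06 (-0.47 to 0.35, adjusted p = 0.828, edgeR), HLA-DRB1 by 0.16 (-0.53 to 0.85, adjusted p = 0.713, and -0.19 without shDDX41 #1 D), HLA-DQB1 by -0.37 (-1.05 to 0.32, adjusted p = 0.366) and HLA-DMA by -0.31 (-0.75 to 0.13, adjusted p = 0.235). These intervals are wide and do not show that the hairpins act alike. For HLA-DRA the difference was -0.06, given with no test. Non-overlap upward against sh-Control, seen in 7 of the 7 with each hairpin, was found for 26.5% of all tested genes with shDDX41 #1 and 21.1% with shDDX41 #2.

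Of 13 other class II genes and pseudogenes listed, 9 were in the table, and only HLA-DOB, a chain of the HLA-DM inhibitor HLA-DO, passed the filter. It was at 2.83, 4.70 and 3.21 CPM in sh-Control, 3.56, 3.29 and 3.03 CPM with shDDX41 #1, and 3.08, 2.83 and 4.24 CPM with shDDX41 #2. The groups overlapped, with log2 changes of -0.12 ± 0.220 (adjusted p = 0.687, edgeR) and -0.09 ± 0.217 (adjusted p = 0.802). HLA-DOA, its alpha chain, and HLA-DQB2 had 0 counts in every library. HLA-DRB6, HLA-DQA2 and HLA-DPB2 had at most 2 counts in any library.

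The lists that follow were read beside the shares of all tested genes given above, 47.8% with shDDX41 #1 and 25% with shDDX41 #2, and nothing particular to a list is claimed from its count. Of 8 factors that hold CIITA at the promoter, 5 passed with shDDX41 #1 (3 higher, 2 lower) and 1 with shDDX41 #2 (lower), with median log2 changes of 0.02 and -0.01. The count for shDDX41 #2 was 0 without sh-Control B, shDDX41 #2 A or shDDX41 #2 B, and 2 without shDDX41 #1 D or with the replicate block. RFX5 changed by 0.03 ± 0.0699 and 0.13 ± 0.0694, and RFXAP by -0.23 ± 0.129 and 0.02 ± 0.126, none past the threshold. RFXANK changed by 0.23 ± 0.0691 with shDDX41 #1 (adjusted p = 0.0134, edgeR) and by -0.02 ± 0.0693 with shDDX41 #2. The NF-Y subunit NFYA fell by 0.42 (SE 0.0706, adjusted p = 0.000205, edgeR) and by 0.24 (SE 0.0701, adjusted p = 0.0224) on the log2 scale. NFYB fell by 0.43 (SE 0.0802) with shDDX41 #1, and CREB1 rose by 0.40 ± 0.0621. Of 17 co-activators and co-repressors that bind CIITA, 8 passed with shDDX41 #1 (2 higher, 6 lower) and 4 with shDDX41 #2 (2 higher, 2 lower). The first count became 5 without sh-Control B. The second became 8 without shDDX41 #1 D, with only the 6 libraries compared and with the replicate block. The co-activator NCOA3 rose with both, by 0.37 ± 0.0928 and 0.50 ± 0.0921, and NCOA1 fell with shDDX41 #1 by 0.95 (SE 0.237) and rose with shDDX41 #2 by 0.68 ± 0.200. SMARCA2, a chromatin remodeller, fell by 0.49 (SE 0.0640) with shDDX41 #1. The histone acetyltransferase KAT2A changed by -0.33 ± 0.0906 and -0.45 ± 0.0906, and the deacetylase HDAC2 by -0.18 ± 0.0680 and -0.29 ± 0.0680, all 4 past the threshold.

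Regulators of CIITA transcription carry signals from outside the cell and lineage factors to its promoters. Of 23 tested, 12 passed with shDDX41 #1 (7 higher, 5 lower) and 8 with shDDX41 #2 (8 higher, 0 lower), with medians of 0.02 and 0.05. The count for shDDX41 #2 was 5 without library B of shDDX41 #2 and 3 without its library D. IFNG, the gene of the cytokine that induces CIITA in most cells, had 0 counts in every library. IRF8, a myeloid and dendritic factor, stood at 392, 403 and 439 CPM in sh-Control, 738, 761 and 776 CPM with shDDX41 #1, and 470, 513 and 509 CPM with shDDX41 #2. It rose by 0.88 ± 0.0656 (adjusted p = 7.9e-08, edgeR) and by 0.27 ± 0.0653 (adjusted p = 0.00675).

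Genes of the interferon-gamma axis are given singly, and no direction of the axis is read from them. IRF1, which binds the inducible CIITA promoter, changed by -0.15 ± 0.0776 with shDDX41 #1 (adjusted p = 0.134, edgeR) and rose by 0.40 ± 0.0756 with shDDX41 #2 (adjusted p = 0.00135). The receptor chain IFNGR1 rose by 0.19 ± 0.0732 with shDDX41 #1 and changed by -0.08 ± 0.0734 with shDDX41 #2, and IFNGR2 passed with neither. JAK1 fell by 0.59 (SE 0.0722) with shDDX41 #1 and changed by 0.05 ± 0.0706 with shDDX41 #2, while JAK2 changed by 0.25 ± 0.0919 (past the threshold) and 0.15 ± 0.0917. PRDM1, a repressor of CIITA, rose by 0.72 ± 0.163 and 0.72 ± 0.162. EZH2, which methylates histones at silenced genes, and the phosphatase PTPN11 fell by 0.83 (SE 0.0749) and 0.79 (SE 0.0614) with shDDX41 #1 and changed by -0.01 ± 0.0729 and -0.03 ± 0.0606 with shDDX41 #2. SPI1, the myeloid factor PU.1, changed by 0.00 ± 0.0641 and -0.06 ± 0.0640.

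**Figure D4:**
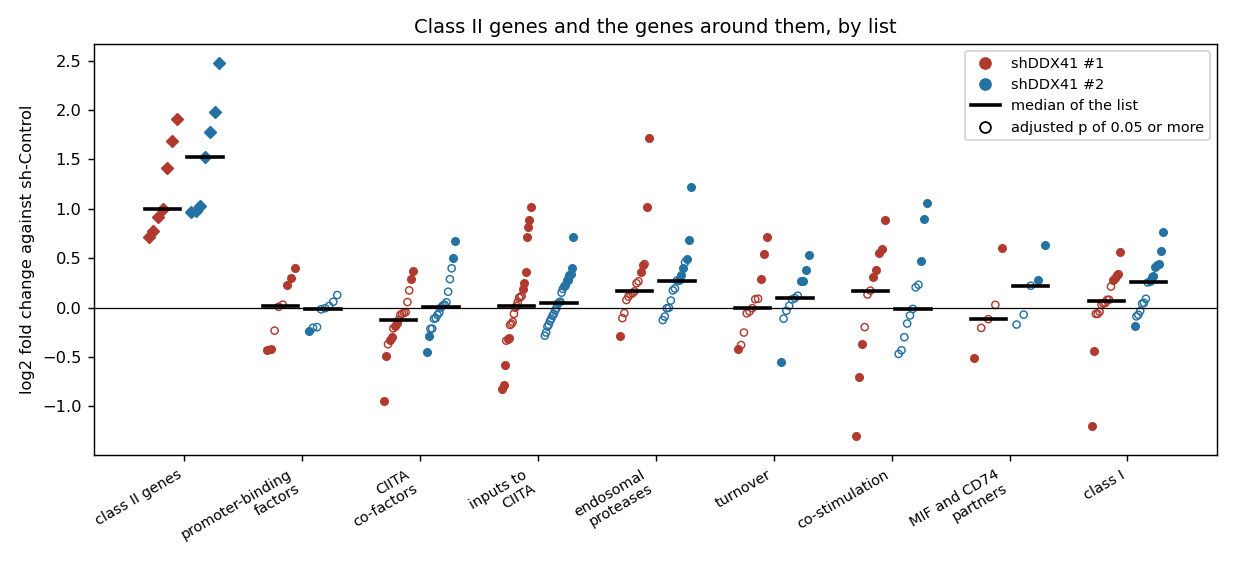
Log2 change against sh-Control of each tested gene by list, for shDDX41 #1 and shDDX41 #2, with a bar at the median of the list, filled circles past an adjusted p of 0.05 and open circles not. The class II genes (diamonds, drawn with no mark of a test) lie above 0.7, and the medians of the other lists lie between -0.13 and 0.27.

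Endosomal proteases and their partners prepare class II molecules for peptide. Of 15 tested, 5 passed with shDDX41 #1 (4 higher, 1 lower) and 6 with shDDX41 #2 (6 higher, 0 lower), with medians of 0.16 and 0.27. With upper quartile scaling the first count was 9. CST3, a cathepsin inhibitor, rose by 0.36 ± 0.0887 and 0.68 ± 0.0886. CTSF rose by 1.71 ± 0.264 and 1.22 ± 0.272 from 1.66 CPM, and CTSA by 0.43 ± 0.0749 and 0.32 ± 0.0748. CTSD and CTSB rose with shDDX41 #2 by 0.40 ± 0.0723 and 0.28 ± 0.0617, and changed by -0.11 ± 0.0727 and 0.14 ± 0.0618 with shDDX41 #1. CTSS, the protease that cuts the invariant chain, changed by 0.25 ± 0.1 and 0.27 ± 0.1 (adjusted p = 0.0552 and 0.0582, edgeR). IFI30, the endosomal thiol reductase, changed by 0.26 ± 0.11 with shDDX41 #1 and rose by 0.49 ± 0.108 with shDDX41 #2. LGMN had at most 4 counts in any library.

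A list on turnover of class II proteins had 11 tested genes, among them general lysosomal genes such as LAMP1 and LAMP2. Of these 11, 4 passed with shDDX41 #1 (3 higher, 1 lower) and 5 with shDDX41 #2 (4 higher, 1 lower). MARCH8, a ubiquitin ligase, rose by 0.72 ± 0.0907 and 0.38 ± 0.0914, and its relative MARCH1, which takes class II from the surface, had 0 counts in sh-Control and at most 5 in any library. The tetraspanin CD37 rose by 0.54 ± 0.0819 and 0.53 ± 0.0817. LAMP1 rose by 0.29 ± 0.0587 and 0.27 ± 0.0586, and LAMP2 by 0.27 ± 0.0615 with shDDX41 #2. CD83, which opposes MARCH1, changed by -0.25 ± 0.137 with shDDX41 #1 and fell by 0.55 (SE 0.138) with shDDX41 #2.

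Co-stimulatory and co-inhibitory molecules, listed together here, act beside class II at the T cell contact. Of 11 tested, 8 passed with shDDX41 #1 (5 higher, 3 lower) and 3 with shDDX41 #2 (3 higher, 0 lower), and the first count was 5 without shDDX41 #1 B. CD86, the ligand of CD28, was at 5.61, 4.87 and 4.74 CPM in sh-Control, 3.13, 1.92 and 4.31 CPM with shDDX41 #1, and 9.19, 10.9 and 8.18 CPM with shDDX41 #2. It fell below the controls with the first and rose above them with the second, by -0.70 ± 0.225 (adjusted p = 0.0181, edgeR) and 0.90 ± 0.196 (adjusted p = 0.00403). ICAM3 rose by 0.38 ± 0.0981 and 1.06 ± 0.0977. TNFSF9 and ICAM1 rose with shDDX41 #1, by 0.60 ± 0.0917 and 0.89 ± 0.157, and LGALS9 by 0.31 ± 0.0728. C10orf54 rose with shDDX41 #2 by 0.47 ± 0.0791. CD40 had 0 to 7 counts per library and was not tested.

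CD74 is also a receptor for the cytokine MIF. MIF changed by -0.12 ± 0.0891 and -0.17 ± 0.0891 and passed with neither hairpin. CXCR4, a partner of CD74 in MIF signalling, was at 70.3, 82.1 and 92.9 CPM in sh-Control, 122, 123 and 127 CPM with shDDX41 #1, and 128, 131 and 121 CPM with shDDX41 #2. It rose with both, by 0.60 ± 0.0849 (adjusted p = 4.0e-05, edgeR) and 0.63 ± 0.0847 (adjusted p = 9.0e-05). CD44 rose with shDDX41 #2 by 0.28 ± 0.0709, and DDT, a relative of MIF, fell with shDDX41 #1 by 0.51 (SE 0.182). Of 5 tested, 2 passed with shDDX41 #1 (1 higher, 1 lower) and 2 with shDDX41 #2 (2 higher, 0 lower). The first count was 1 without sh-Control B, shDDX41 #1 A or shDDX41 #1 B, and also with upper quartile scaling or the DESeq2 test. The second was 1 without sh-Control D or shDDX41 #2 D.

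Of 16 tested genes of class I presentation, 7 passed with shDDX41 #1 (5 higher, 2 lower) and 9 with shDDX41 #2 (8 higher, 1 lower), with medians of 0.06 and 0.26. NLRC5, the class I counterpart of CIITA, fell by 0.44 (SE 0.133) with shDDX41 #1 and changed by 0.05 ± 0.129 with shDDX41 #2. TAP1 and PSMB9 rose with both, HLA-E rose with shDDX41 #2 by 0.57 ± 0.0783, and CALR fell by 1.2 (SE 0.0666) with shDDX41 #1 and by 0.19 (SE 0.0656) with shDDX41 #2.

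Markers of other class II-bearing cells were looked for beside these results. Of 16 dendritic cell markers 6 passed the filter, and CD1A, CD1B, CD1C and XCR1 were at 0 in all libraries. Their summed level, most of it FLT3 that MOLM13 also expresses, was 483 to 537 CPM in sh-Control, 493 to 563 with shDDX41 #1 and 449 to 481 with shDDX41 #2. With shDDX41 #1, FLT3 was called higher and ITGAX, FSCN1 and BATF3 lower. BATF3 and FSCN1 were called lower with shDDX41 #2 too, and none of the 6 tested passed upward there (edgeR). Of 11 B cell markers 2 passed the filter, with MS4A1, PAX5 and CR2 at 0. Their sum was 3.53 to 4.16 CPM in sh-Control, 4.28 to 6.76 with shDDX41 #1 and 5.64 to 6.55 with shDDX41 #2. It was higher beside the class II genes, mainly through BANK1 (chosen after its values were seen, like LYZ, BRD2 and DEXI), whose mean went from 2.72 to 4.03 and 4.85 CPM. The monocytic leukemia markers summed to 2729 to 2895, 2779 to 2877 and 3651 to 3704 CPM. LYZ, a lysozyme gene of maturing myeloid cells, rose by 0.96 ± 0.0658 with shDDX41 #2 and changed by -0.10 ± 0.0654 with shDDX41 #1. T and NK cell markers summed to 20.4 to 23.5, 12.2 to 17.4 and 24.3 to 26.9 CPM, and markers of the virus-producing kidney line to 14.7 to 19.4, 16.5 to 17.8 and 18.0 to 19.1 CPM. Most of the kidney-line sum was KRT18, while KRT8 (also named after its values were seen) rose with both hairpins, by 0.63 ± 0.216 (adjusted p = 0.0261, edgeR) and 1.00 ± 0.207 (adjusted p = 0.00271). The other 7 kidney-line markers did not pass the filter. NKG7 and CD3D, the 2 tested T and NK cell markers, were lower with shDDX41 #1 and neither passed with shDDX41 #2. The part of any of these in the class II values was not tested.

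The genes whose levels followed HLA-DRA most closely over the 9 libraries were C7orf31 (Pearson r = 0.989), GGT5 (0.988), RCSD1 (0.986), MSRB1 (0.984) and THEM4 (0.981), of 9833 genes with a mean of at least 5 CPM. The measure is log2 CPM with a prior count of 2, and the libraries fall into a control cluster and hairpin clusters, so r mostly reflects that step. With 1 library left out, as few as 3 of these 5 genes were found again (without sh-Control A or B, shDDX41 #1 B or D, or shDDX41 #2 A or D). All 5 were higher than sh-Control with both hairpins. GGT5, a gamma-glutamyltransferase, was at 7.05, 7.28 and 7.85 CPM in sh-Control, 19.3, 18.9 and 23.5 CPM with shDDX41 #1, and 17.9, 18.7 and 19.8 CPM with shDDX41 #2. Its log2 changes of 1.47 ± 0.114 and 1.34 ± 0.114 were below those of HLA-DRA, and the other 4 changed by 0.54 to 0.75. Among the members, CIITA had an r of 0.979 and ranked 6 of 12711 tested genes, CD74 0.951 (rank 46), HLA-DQB1 0.928 (122), HLA-DRB1 0.914 (163), HLA-DMA 0.907 (186) and HLA-DMB 0.790 (769). The median of all genes was -0.0173. HLA-DRA was chosen for its rise, and HLA-DRB1, HLA-DQB1 and HLA-DMB passed the filter through the hairpin groups. The ranks of the members are therefore a description and support nothing on their own.

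**Figure D5:**
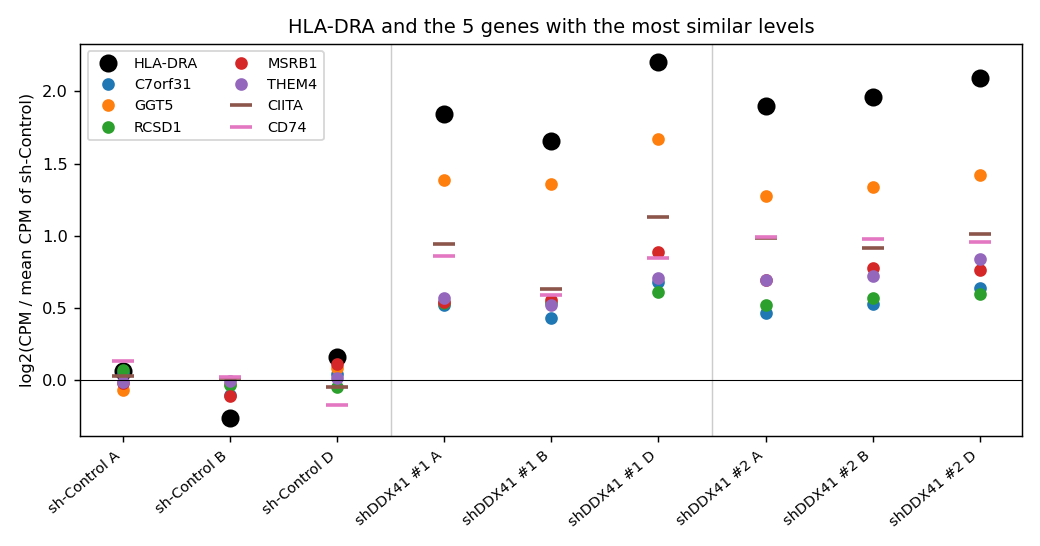
Level of HLA-DRA, its 5 most similar genes, CIITA and CD74 in each library, as log2 of CPM over the mean of the sh-Control libraries. The 3 controls lie near 0 and all hairpin libraries above them, with HLA-DRA highest in each.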

How the data were processed

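RNA-seq of 9 libraries was deposited by the authors as whole-number counts per gene, not normalized. Poly(A) RNA was sequenced as paired-end reads. The labels name a stranded kit and the study's methods another of the same family, so strand is uncertain. The submitters' processing notes name FastQC 0.11.7, HISAT2 2.0.5, featureCounts 1.5.2 and the builds mm10 and hg38, without their roles. The annotation and the handling of multimapping reads are not given in the sources used here. Of the columns, 0 were left unmapped to a library.

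Groups came from the labels. In R 4.3.3, edgeR 4.0.16 kept genes by filterByExpr (minimum count 10), scaled by TMM (factors 0.963 to 1.02) and fitted its quasi-likelihood model to all 9 libraries, with the group as the sole term. P-values were two-sided and Benjamini-Hochberg adjusted over 12712 genes, with calls at 0.05. The SE is the log2 change divided by the square root of F. The biological coefficient of variation was 0.0768, and counting error is larger than that for every member but CD74 and, in the hairpin libraries, part of HLA-DRA. No exact permutation test of 3 against 3 libraries can give a p under 0.1. The scripts were tested on simulated data. The members and gene lists were chosen with earlier results of these data known. Genes were named by rule: the members, 20 regulators and partners (1 of them is not reported here), from each other pathway list (not the marker lists) the 3 called genes with the smallest adjusted p per hairpin, the 5 most like HLA-DRA, and DDX41. Any gene named outside it was chosen after its values were seen. Gene spans and exon lengths came from GENCODE 29 and promoters from RefSeq. The exon length of a gene was that of its longest principal (APPRIS) transcript. Alternatives were other scalings and filters, DESeq2 1.42.0, 6 libraries only, a replicate block and leaving out each library. Pairing by letter was checked and not settled, and the letter was left out of the main fit.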

Additional observations from a re-analysis of the deposited data

Results flagged for a closer look

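Of the 7 members that passed the filter, HLA-DMB alone passed the test of the difference between the hairpins. Of all tested genes, 48.8% passed it, so a call here is common. The log2 difference of HLA-DMB between shDDX41 #1 and shDDX41 #2 was -1.48 (edgeR, adjusted p = 9.6e-05). Its level was lower in 3 of 3 libraries of shDDX41 #1 than in 3 of 3 of shDDX41 #2, as for 28.5% of all tested genes. Over the alternatives that could give a value, the difference of HLA-DMB ranged from -1.67 to -1.37, and the adjusted p was at most 0.000942 (edgeR or DESeq2). HLA-DMB drops out where at least 10 counts are asked of every library, since 1 control library held 9. No cause was tested.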

How the results depend on the processing

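Against sh-Control, 214 of the recomputed log2 changes of members kept direction and call, and 4 lost the call, HLA-DMA and HLA-DMB with shDDX41 #1 as given above. Asking at least 10 counts in every library left 4 members called against sh-Control with each hairpin and 0 between the hairpins, because 3 members are then not tested. Between the hairpins the count was 2 in place of 1 with DESeq2 size factors, no filter, the DESeq2 test, only the 6 libraries compared and the replicate block, and 1 to 2 with each library left out. The added gene was CD74. The replicate block changed no other call of a member. Whether letters pair the samples was not settled. Correlations of same-letter deviations ran from -0.0574 to 0.243, and 7 of 9 libraries correlated best with their own letter. Between sh-Control and shDDX41 #1 these correlations were 0.0725 (A), 0.158 (B) and 0.243 (D). Pairs with shDDX41 #2 ran from -0.0574 to 0.0225. The main fit has no term for the letter. The small differences between the hairpins changed sign with libraries left out: HLA-DRA from -0.23 to 0.0493 (without shDDX41 #1 B), CIITA from -0.17 to 0.0640 (without shDDX41 #1 B) and HLA-DRB1 from -0.19 (without shDDX41 #1 D, and -0.04 without shDDX41 #2 D) to 0.30. Over all genes, calls with shDDX41 #2 ran from 2054 (without its library B) to 4248 (without shDDX41 #1 D). Of the 5 genes most like HLA-DRA, 3 to 5 were found again with each library left out. With no mismatch allowed in the X1 box, 0 of the 8 member promoters held the paired boxes. Why these values moved was not tested.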
